A study of Mus musculus with 16 samples.

Results

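Sterol and fatty acid synthesis was followed through 35 genes chosen by symbol in cultured progenitors of mouse subcutaneous fat. All 35 were found among the 27179 entries of the deposited table, and all 35 were among the 14005 genes with a normalized count of at least 10 in at least 4 libraries. They comprise 5 sterol regulators, 7 enzymes of the mevalonate route, 12 enzymes that carry its product through squalene to cholesterol, 1 sterol transfer protein, 5 enzymes of fatty acid synthesis, and 5 genes of the liver X receptor (LXR) and sterol efflux branch. RNA was sequenced from primary PDGFRb+ adipose progenitor cells (APCs) of inguinal white fat of C57BL/6 mice, sorted by flow cytometry and cultured in medium with 10% serum. The 4 groups were DPP4_pos APCs given isoproterenol, DPP4_pos APCs given vehicle, DPP4_neg APCs given isoproterenol and DPP4_neg APCs given vehicle, with 4 libraries in each, and no genetic change is named for any of them. Isoproterenol, an agonist of beta-adrenergic receptors, was applied at 10 mM as the labels state it, which is above the doses usual for cultured cells, and the vehicle was PBS. All cells were taken after 4 h. The sources used here name neither the sex and age of the mice nor whether the 4 libraries of a group came from separate animals or cultures. The p-values therefore speak only of the spread among these libraries, which may be technical.

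Cells keep the sterol content of their membranes steady through a feedback loop in the endoplasmic reticulum. When sterols are scarce, the escort protein SCAP carries the transcription factors SREBP-1 and SREBP-2 to the Golgi, where they are cut and released to activate the genes of sterol and fatty acid synthesis. When sterols are plentiful, the INSIG proteins hold SCAP back, while oxidised sterols activate the liver X receptors, which turn on the exporters of cholesterol. In fat, the same acetyl-CoA feeds fatty acid synthesis, and the desaturases and fatty acid synthase are abundant in differentiating adipocytes.

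The sort was visible in the libraries. Dpp4 had 2223 ± 97.7 normalized counts in DPP4_pos isoproterenol, 3053 ± 186 in DPP4_pos vehicle, 9.89 ± 2.29 in DPP4_neg isoproterenol and 21.1 ± 4.16 in DPP4_neg vehicle libraries (mean ± SD, n = 4). A normalized count is a read count divided by the library's size factor. All 8 stromal progenitor markers looked at, among them Pdgfrb and Pdgfra, were above 0 in every library. Libraries held 9823799 to 28627223 reads in genes, and the 35 genes together held 53326 to 151546 reads. The coefficient of variation of a gene within a group ranged from 0.54% to 32.45%, with a median of 4.115%. The summed normalized count was 18373884 to 18618379 in DPP4_pos isoproterenol libraries, against 15178960 to 15405397 in DPP4_pos vehicle libraries, and it lay between 15988699 and 16240972 in all DPP4_neg libraries. Size factors and totals thus scale the DPP4_pos isoproterenol libraries differently, and results that turn with the scaling are named as such.

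The promoters of 28 of the 35 genes were in the RefSeq table of GRCm38.p6, as windows of 250 bases before to 50 bases after the annotated start. Those of Sqle, Fdft1, Fdps, Stard4, Scd1, Scd2 and Abcg1 were not matched. The 5 windows printed here, each 5′ to 3′ on the strand of the gene, belong to the regulator Insig1 and to 4 enzymes whose levels rose under isoproterenol in both populations. Capitals mark the sterol regulatory element TCACNCCAC, the CCAAT box and the E-box CACGTG, each searched on both strands.
Hmgcs1, chr13:119690101-119690400, forward strand: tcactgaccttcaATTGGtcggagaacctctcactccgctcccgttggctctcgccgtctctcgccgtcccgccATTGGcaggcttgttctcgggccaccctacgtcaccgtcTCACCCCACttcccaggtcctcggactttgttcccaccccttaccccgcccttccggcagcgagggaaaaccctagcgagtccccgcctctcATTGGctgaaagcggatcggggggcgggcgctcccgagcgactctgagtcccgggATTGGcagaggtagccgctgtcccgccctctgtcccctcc
Insig1, chr5:28071162-28071461, forward strand: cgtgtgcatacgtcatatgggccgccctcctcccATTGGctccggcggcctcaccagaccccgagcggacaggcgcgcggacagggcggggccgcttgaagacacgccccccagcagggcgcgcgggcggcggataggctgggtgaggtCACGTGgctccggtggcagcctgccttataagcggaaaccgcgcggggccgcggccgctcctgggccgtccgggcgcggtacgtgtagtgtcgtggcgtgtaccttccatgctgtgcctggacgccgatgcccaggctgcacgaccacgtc
Cyp51, chr5:4104648-4104947, reverse strand: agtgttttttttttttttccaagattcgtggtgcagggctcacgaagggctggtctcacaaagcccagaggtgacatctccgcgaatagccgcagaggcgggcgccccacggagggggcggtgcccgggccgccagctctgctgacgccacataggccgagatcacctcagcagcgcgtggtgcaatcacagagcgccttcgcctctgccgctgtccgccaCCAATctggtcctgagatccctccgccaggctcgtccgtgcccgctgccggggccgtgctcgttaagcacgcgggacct
Hsd17b7, chr1:169969156-169969455, reverse strand: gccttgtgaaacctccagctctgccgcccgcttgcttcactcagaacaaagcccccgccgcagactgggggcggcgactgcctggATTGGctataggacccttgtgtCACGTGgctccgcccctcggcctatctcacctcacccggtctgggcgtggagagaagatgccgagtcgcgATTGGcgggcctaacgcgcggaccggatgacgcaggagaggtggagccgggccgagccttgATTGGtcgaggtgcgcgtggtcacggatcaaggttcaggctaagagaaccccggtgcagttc
Pmvk, chr3:89454291-89454590, forward strand, the more upstream of its 2 windows: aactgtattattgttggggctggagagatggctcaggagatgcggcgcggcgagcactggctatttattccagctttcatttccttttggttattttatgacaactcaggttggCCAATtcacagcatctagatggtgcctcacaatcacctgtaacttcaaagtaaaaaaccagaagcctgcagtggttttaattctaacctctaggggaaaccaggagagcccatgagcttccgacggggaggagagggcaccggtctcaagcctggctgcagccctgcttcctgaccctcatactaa

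In the Hmgcs1 window the element TCACCCCAC began 137 bases before the start, and 4 CCAAT boxes, written ATTGG on this strand, flanked it. The windows of Insig1 and Hsd17b7 each held an E-box, 101 and 143 bases before the start. Those of Insig1, Cyp51 and Pmvk held a single CCAAT box each, and that of Hsd17b7 held 3. The exact sterol element was found in 1 of the 28 members, against 1.44% of the 27025 genes in the table. CCAAT boxes were present in 22 of 28 members (78.6%), against 41.06% of all genes, and in 10 of the 10 matched enzymes of the squalene to cholesterol segment. The GC box GGGCGG was in 23 members (82.1%), against 38.2% of all genes, and the E-box in 6 (21.4%), against 8.09%. No member held the full cAMP response element TGACGTCA, which 2.03% of all genes held, while its core TGACG, which also lies inside the full element, was in 10 members (35.7%), against 23.05%. Members had 1.32 windows per gene on average and all genes 1.22. All genes here are those of the promoter table, whether expressed in these cells or not, while every member passed the filter on level. The shares were not matched for level. The printed windows were picked among genes that rose, and others that rose, such as Idi1, are not printed. Among genes that fell in both populations, Mvk had 5 CCAAT boxes, Nsdhl 4 and Sc5d 1. The Sc5d window also held an E-box, while the windows of Acaca and Nr1h3 held none of these motifs. These matches describe letters in a short window and were not tested.

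Without stimulation, most sterol genes were higher in DPP4_pos than in DPP4_neg APCs. Under vehicle, 27 of the 35 genes were higher in DPP4_pos APCs, 4 were lower and 4 were not called (limma, Benjamini-Hochberg adjusted p under 0.05 over all 14005 genes). Over all genes tested, 66.6% were called, 31.6% higher and 35.0% lower. The median log2 difference of the members was 0.73, against −0.01 over all genes. In 32 of the 35 genes the 4 DPP4_pos values lay entirely above or below the 4 DPP4_neg values, as they did for 67.3% of all genes. Enzymes of sterol synthesis made up most of this difference in number, with 17 of 19 higher, 1 lower (Lbr) and 1 not called (Sqle), and a median of 0.85. Of the fatty acid enzymes, 3 were higher and 2 lower, and of the LXR and efflux genes 3 were higher and 2 not called. Under quantile normalization only 1 fatty acid enzyme was lower, since the call of Fasn was lost (−0.006). In bulk RNA, a difference in the share of cells of a type and a difference in RNA per cell cannot be told apart.

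Markers of other cell types also differed between the populations. The 7 mural markers summed to 8038 ± 504 normalized counts in DPP4_pos vehicle and 112439 ± 4954 in DPP4_neg vehicle libraries (mean ± SD, n = 4), and none was at 0 in any library. Under vehicle 1 of the 7 was higher in DPP4_pos APCs, 4 were lower and 2 were not called. The sums are largely those of Acta2, which ran from 3580 to 105636 over the 16 libraries, while the next highest marker, Cnn1, ran from 158 to 6527. The 9 adipocyte markers summed to 22056 ± 1351 in DPP4_pos vehicle and 72250.1 ± 4592 in DPP4_neg vehicle libraries, and 8 of the 9 were lower in DPP4_pos APCs. Endothelial markers ran the other way, at 1138 ± 23.8 in DPP4_pos vehicle and 181 ± 18.5 in DPP4_neg vehicle libraries, with Erg at 0 in 2 libraries and Vwf in 1. The higher sum is largely that of Tek and Kdr, which reached 1038 and 707. Cdh5, the next highest, reached 91.0. Of the 5 tested, 4 were higher in DPP4_pos APCs and 1 was not called. The 9 macrophage markers summed to 633 ± 199 in DPP4_pos vehicle and 586 ± 229 in DPP4_neg vehicle libraries, with Ptprc, Fcgr1, C1qa and C1qb each at 0 in 1 library. Of the 8 tested, 1 was higher in DPP4_pos APCs and 7 were not called. Stromal progenitor markers summed to 513969 ± 3601 in DPP4_pos vehicle and 315621 ± 4355 in DPP4_neg vehicle libraries. Of these 8 markers, 6 were higher in DPP4_pos APCs and 2 were lower. The shares over all genes were 31.6% higher and 35.0% lower. The part of these cells in the differences of the sterol and fatty acid genes was not tested.

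**Figure D1:**
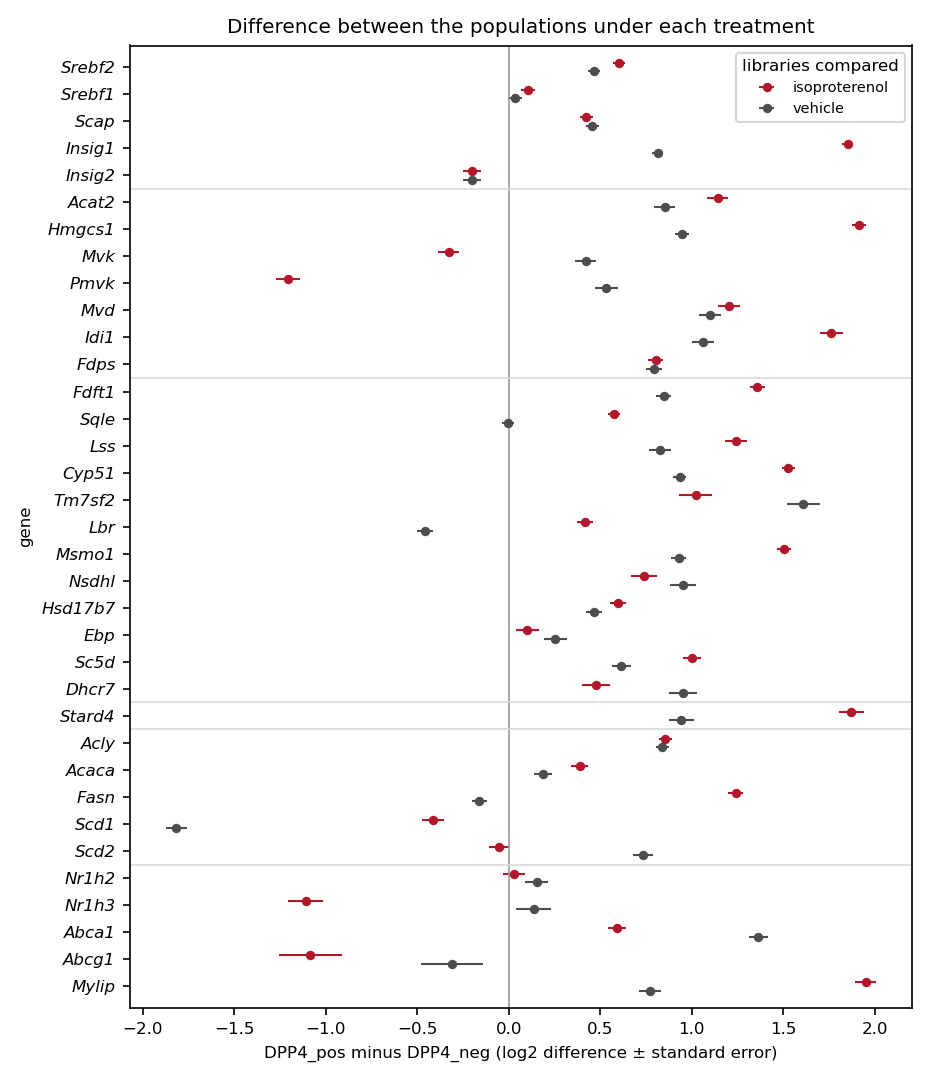
Log2 difference of DPP4_pos minus DPP4_neg APCs for each of the 35 genes, ± standard error of the limma fit, under isoproterenol (red) and vehicle (grey), 4 libraries per group, with horizontal lines between gene classes. Most sterol enzymes lie right of 0 under both treatments, and Scd1 lies left of 0 under both. Of the genes called under both treatments, Pmvk, Mvk, Lbr and Fasn lie on opposite sides of 0 under the 2 treatments.

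Under isoproterenol most sterol genes were again higher in DPP4_pos APCs, with more differences of 2-fold or larger. There, 26 genes were higher in DPP4_pos APCs, 6 were lower and 3 were not called, and the median difference was 0.60. Over all genes, 74.4% were called, 37.4% higher and 37.0% lower, with a median of −0.004. Groups did not overlap for 31 members and for 63.9% of all genes. A difference of 2-fold or more was called for 17 members and 18.7% of all genes under isoproterenol, and for 5 members and 15.8% of all genes under vehicle. Scaled to total reads in genes, an alternative added after the totals were seen, the split over all genes was 3665 higher and 7004 lower in place of 5237 and 5181, with the median gene at −0.199, and that over the members was 25 higher and 9 lower.

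Isoproterenol moved these genes in both directions. In DPP4_pos APCs, 18 of the 35 rose, 13 fell and 4 were not called, with a median of 0.20 against −0.054 over all genes, and 12 of the calls were 2-fold or larger, as were calls for 30.7% of all genes. The background was high here, since 82.7% of all genes were called, 39.4% higher and 43.3% lower, so that a call for 31 of 35 members is close to it. Groups did not overlap for 31 members and 77.8% of all genes. In DPP4_neg APCs, 12 members rose, 18 fell and 5 were not called, with a median of −0.23 against −0.02 over all genes, and 4 calls reached 2-fold, as did calls for 15.3% of all genes. There 65.7% of all genes were called, 32.1% higher and 33.6% lower, and groups did not overlap for 29 members and 58.9% of all genes. Scaled to total reads in genes, the DPP4_pos split over all genes was 3865 higher and 7835 lower in place of 5517 and 6064, since that scaling moved the median gene to −0.325. On it, 15 members rose and 17 fell, with a median of −0.07. Quantile normalization also turned the DPP4_pos split, to 14 members rising and 16 falling. Their median there was −0.08, against −0.031 over all genes.

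Sums of markers of other cell types under isoproterenol stand beside these responses. The mural markers summed to 5314 ± 452 in DPP4_pos isoproterenol and 8038 ± 504 in DPP4_pos vehicle libraries, and to 77023 ± 2846 in DPP4_neg isoproterenol and 112439 ± 4954 in DPP4_neg vehicle libraries (mean ± SD of normalized counts, n = 4). Of the 7 mural genes, 3 rose and 4 fell in DPP4_pos APCs, and 1 rose and 4 fell in DPP4_neg APCs. Macrophage markers summed to 872 ± 277 in DPP4_pos isoproterenol and 633 ± 199 in DPP4_pos vehicle libraries, and to 1280.4 ± 448 in DPP4_neg isoproterenol and 586 ± 229 in DPP4_neg vehicle libraries. Of the 8 macrophage markers tested, 2 rose and 6 were not called in each population. Endothelial markers summed to 1212 ± 51.0 in DPP4_pos isoproterenol and 1138 ± 23.8 in DPP4_pos vehicle libraries, and to 185 ± 15.0 in DPP4_neg isoproterenol and 181 ± 18.5 in DPP4_neg vehicle libraries. Of the 5 endothelial markers tested, 1 rose, 2 fell and 2 were not called in DPP4_pos APCs, with log2 responses from −1.61 to 4.08. In DPP4_neg APCs 2 of them rose, 2 fell and 1 was not called, with log2 responses from −1.98 to 3.07. Stromal progenitor markers summed to 388649.9 ± 8006 in DPP4_pos isoproterenol and 513969 ± 3601 in DPP4_pos vehicle libraries, and to 317799 ± 16023 in DPP4_neg isoproterenol and 315621 ± 4355 in DPP4_neg vehicle libraries. These sums are largely those of 2 collagens, Col1a1 (85721 to 172822 over the 16 libraries) and Col3a1 (106583 to 281910). Of the 8 stromal markers, 6 fell and 2 were not called in DPP4_pos APCs, and 2 rose, 2 fell and 4 were not called in DPP4_neg APCs. The shares over all genes were 39.4% rising and 43.3% falling in DPP4_pos APCs, and 32.1% rising and 33.6% falling in DPP4_neg APCs. The part of these cells in the responses of the 35 genes was not tested.

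Under isoproterenol 11 members rose in both populations and 11 fell in both, while 25.9% of all genes rose in both and 26.4% fell in both. The 11 that rose in both were Srebf2, Scap, Insig1, Hmgcs1, Pmvk, Idi1, Sqle, Cyp51, Hsd17b7, Acly and Abca1, although Srebf2, Scap and Acly lost the rise in DPP4_pos APCs under quantile normalization (−0.044, −0.076 and −0.022), where the value of Scap was called lower. The 11 that fell in both were Srebf1, Insig2, Mvk, Fdps, Tm7sf2, Nsdhl, Sc5d, Dhcr7, Acaca, Nr1h3 and Abcg1, of which Tm7sf2 in DPP4_neg APCs was not called under quantile normalization (−0.09). Fdft1, Lbr, Fasn, Scd1 and Mylip rose in DPP4_pos and fell in DPP4_neg APCs, although Fdft1 in DPP4_pos APCs was at −0.058 under quantile normalization and −0.069 when scaled to total reads. Scd2 did the reverse, falling in DPP4_pos and rising in DPP4_neg APCs, with a rise that was not called under quantile normalization (0.103). Over all genes tested, 3.7% rose in DPP4_pos and fell in DPP4_neg APCs, and 2.7% fell in DPP4_pos and rose in DPP4_neg APCs.

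The responses themselves were compared as the DPP4_pos response minus the DPP4_neg response. This difference was positive for 17 members, negative for 8 and not called for 10, with a median of 0.13. Over all genes 62.6% were called, 31.6% positive and 31.0% negative, with a median of −0.022. The split depended on the scaling. It was 14 positive and 17 negative under quantile normalization and 12 positive and 17 negative when scaled to total reads in genes, and scaling to total reads moved the split over all genes to 2557 positive and 6828 negative in place of 4423 and 4342, with the median gene at −0.279. Under each of these scalings, and with edgeR and DESeq2, Insig1, Hmgcs1, Idi1, Fdft1, Sqle, Cyp51, Lbr, Msmo1, Stard4, Fasn, Scd1 and Mylip had a called positive difference, and Mvk, Pmvk, Tm7sf2, Dhcr7, Scd2, Nr1h3, Abca1 and Abcg1 a called negative one.

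**Figure D2:**
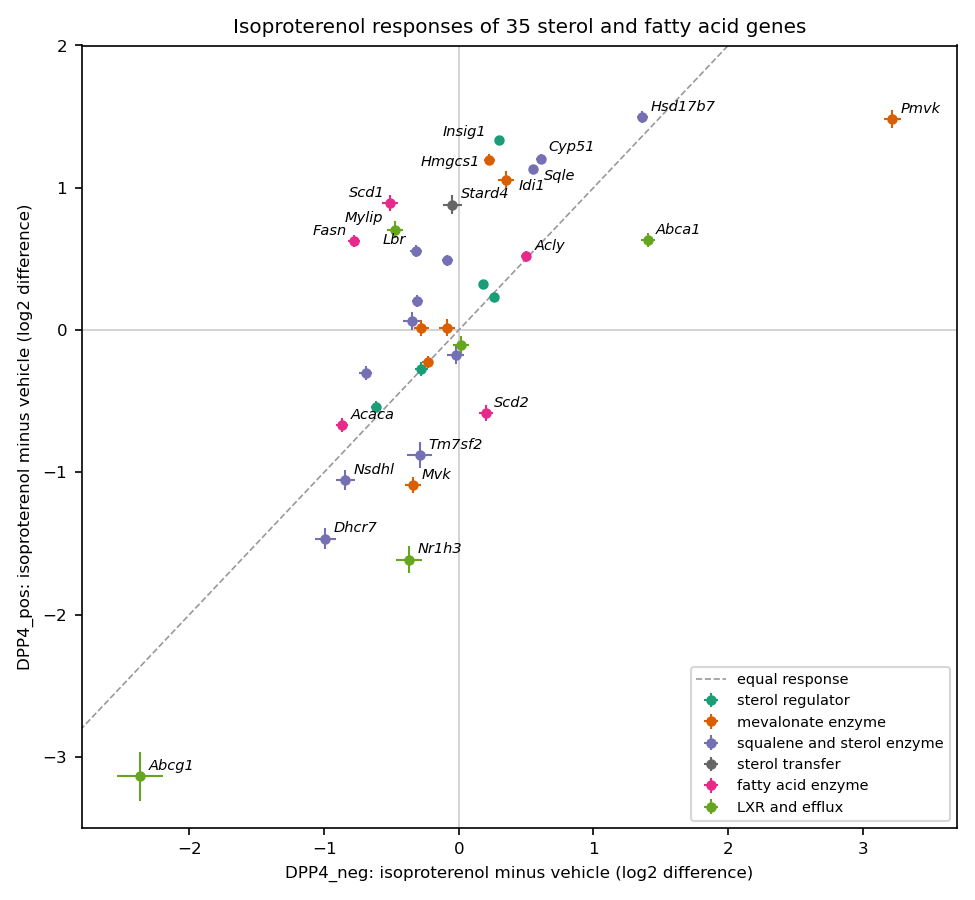
Isoproterenol response of each gene (log2 difference, isoproterenol minus vehicle) in DPP4_pos APCs (vertical) against DPP4_neg APCs (horizontal), with standard errors of the limma fit as bars and the dashed line marking an equal response. Insig1, Hmgcs1, Cyp51, Sqle and Idi1 lie above the line, Pmvk and Abca1 lie below it, and Fasn, Scd1, Mylip and Lbr lie in the upper left, higher in DPP4_pos and lower in DPP4_neg APCs.

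Of the 5 regulators, 3 rose and 2 fell in each population. Among all genes, 39.4% rose and 43.3% fell in DPP4_pos APCs, and 32.1% rose and 33.6% fell in DPP4_neg APCs. The largest change among the regulators was that of the feedback protein Insig1 in DPP4_pos APCs and that of Srebf1, which fell, in DPP4_neg APCs. In DPP4_pos APCs 1 rose and 3 fell under quantile normalization, where Insig1 was still the one that rose. Insig1 (chromosome 5, 28071363 to 28078662, forward strand, GRCm38) retains SCAP when sterols are plentiful and is itself a target of SREBP. In DPP4_pos cells Insig1 had 5710.0, 5678, 5495 and 5724 normalized counts under isoproterenol, against 2265, 2195, 2251 and 2243 under vehicle. In DPP4_neg cells Insig1 had 1627, 1519.7, 1568 and 1541 normalized counts under isoproterenol, against 1269, 1269.6, 1272 and 1284 under vehicle. The groups did not overlap in either population, and the 4 DPP4_pos isoproterenol libraries stood above all 12 others. The response was 1.34 ± 0.03 (adjusted p = 3.25e-20) in DPP4_pos and 0.30 ± 0.03 (adjusted p = 1.85e-08) in DPP4_neg APCs on the log2 scale (limma), and it was larger in DPP4_pos APCs by 1.04 ± 0.04 (adjusted p = 1.29e-14). Under quantile normalization that difference was 0.70. Insig2, its relative, fell by 0.28 ± 0.05 in DPP4_pos and 0.28 ± 0.05 in DPP4_neg APCs, and was lower in DPP4_pos than in DPP4_neg APCs under vehicle, at −0.20 ± 0.05.

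The 2 SREBP genes moved in opposite directions, except that Srebf2 in DPP4_pos APCs turned to −0.044 under quantile normalization. Srebf2, which encodes the SREBP that drives mainly sterol genes, had 4407, 4225, 4096 and 4354 normalized counts under isoproterenol, against 3449.6, 3338, 3414 and 3475 under vehicle in DPP4_pos cells. In DPP4_neg cells Srebf2 had 2783, 2816, 2694 and 2953 normalized counts under isoproterenol, against 2493, 2449.6, 2521 and 2447 under vehicle. The rise was small, 0.32 ± 0.03 in DPP4_pos and 0.18 ± 0.03 (adjusted p = 5.77e-05) in DPP4_neg APCs (limma), with no overlap of groups. It was not called in DPP4_pos APCs when scaled to total reads in genes (0.047). Srebf1, whose products drive mainly fatty acid genes, had 1807, 1688, 1682 and 1811 normalized counts under isoproterenol, against 2552, 2479, 2555 and 2570.0 under vehicle in DPP4_pos cells. In DPP4_neg cells Srebf1 had 1653, 1731, 1584 and 1530.5 normalized counts under isoproterenol, against 2468, 2478, 2534 and 2451 under vehicle. All isoproterenol values lay below all vehicle values, and Srebf1 fell by 0.54 ± 0.04 (adjusted p = 1.8e-11) in DPP4_pos and 0.61 ± 0.04 (adjusted p = 4.58e-12) in DPP4_neg APCs (limma). Between the populations Srebf1 differed little, at 0.11 ± 0.04 under isoproterenol, a call that was lost without DPP4_neg isoproterenol replicate 4, DPP4_pos isoproterenol replicate 1 or DPP4_pos isoproterenol replicate 4 (0.077, 0.089 and 0.088) and turned to a called −0.093 under quantile normalization and −0.091 when scaled to total reads. Scap had 2158 ± 62.5, 1839 ± 77.6, 1608 ± 10.9 and 1339.8 ± 34.1 normalized counts in DPP4_pos isoproterenol, DPP4_pos vehicle, DPP4_neg isoproterenol and DPP4_neg vehicle libraries (mean ± SD, n = 4). It was higher in DPP4_pos APCs under both treatments, and 13.2% of its exon bases are shared with 5830462I19Rik on the other strand. The sources used here do not say whether reads were assigned by strand.

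The mevalonate route turns acetyl-CoA into the isoprenoid units of all sterols. Under vehicle all 7 of its enzymes were higher in DPP4_pos APCs, with differences from 0.42 (Mvk) to 1.10 (Mvd) and no overlap of groups for any of them. Of all genes tested, 31.6% were higher there, and groups did not overlap for 67.3%. Under isoproterenol 5 of the 7 enzymes remained higher and 2, Mvk and Pmvk, were lower in DPP4_pos APCs, against 37.4% higher and 37.0% lower over all genes.

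Hmgcs1 (chromosome 13, 119690379 to 119708260, forward strand), the synthase that makes HMG-CoA, was the most abundant sterol enzyme per exon length on average over the groups. In DPP4_pos cells Hmgcs1 had 11789.6, 11516, 10745 and 12293 normalized counts under isoproterenol, against 5309, 4873, 4983 and 5023 under vehicle. In DPP4_neg cells Hmgcs1 had 3157, 2938, 3109 and 3074 normalized counts under isoproterenol, against 2593, 2699.8, 2633 and 2561 under vehicle. The DPP4_pos isoproterenol libraries were the highest of all, the DPP4_neg vehicle libraries the lowest, and no groups overlapped. The response was 1.20 ± 0.04 (adjusted p = 1.78e-17) in DPP4_pos and 0.23 ± 0.04 (adjusted p = 2.7e-05) in DPP4_neg APCs, a difference between responses of 0.97 ± 0.06 (adjusted p = 2.26e-12) (limma). Under quantile normalization the DPP4_pos response was 0.71 and the difference 0.57. Of its exon bases 12.1% are shared with an antisense transcript, Gm48342.

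Pmvk (chromosome 3, 89454541 to 89469013, forward strand), the kinase that adds the second phosphate to mevalonate, had the largest response of the route's enzymes in both populations. In DPP4_pos cells Pmvk had 1151, 1153, 1337 and 1233 normalized counts under isoproterenol, against 474, 426, 425 and 417 under vehicle. In DPP4_neg cells Pmvk had 2532, 3042, 3081 and 2615 normalized counts under isoproterenol, against 283, 313, 305 and 302 under vehicle. Isoproterenol libraries were above vehicle libraries throughout, and the DPP4_neg isoproterenol libraries were above all others. Pmvk rose 2.79-fold in DPP4_pos and 9.31-fold in DPP4_neg APCs, or 1.48 ± 0.06 (adjusted p = 3.04e-15) in DPP4_pos and 3.22 ± 0.06 (adjusted p = 7.97e-21) in DPP4_neg APCs on the log2 scale (limma). The DPP4_pos response was thus smaller, with a difference of −1.74 ± 0.09 (adjusted p = 5.85e-13), of opposite sign to that of Hmgcs1 and Idi1. Between populations Pmvk was higher in DPP4_pos APCs under vehicle, 0.53 ± 0.06, and lower under isoproterenol, −1.21 ± 0.06.

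Mvk, the kinase one step before Pmvk, fell where Pmvk rose. In DPP4_pos cells Mvk had 318, 347, 340.5 and 346 normalized counts under isoproterenol, against 688, 714, 747 and 729 under vehicle. In DPP4_neg cells Mvk had 418, 479, 407 and 398 normalized counts under isoproterenol, against 511, 557, 524 and 559 under vehicle. Groups did not overlap, and the fall was larger in DPP4_pos APCs, at −1.09 ± 0.06 (adjusted p = 9.84e-14) against −0.34 ± 0.06 (adjusted p = 2.33e-05) in DPP4_neg APCs, with a difference of −0.75 ± 0.08 (adjusted p = 6.55e-08) (limma). Idi1, the isomerase that makes the 2 isoprenoid units interchangeable, followed Hmgcs1. In DPP4_pos cells Idi1 had 1001, 922, 946 and 1020.4 normalized counts under isoproterenol, against 468, 475, 459 and 466 under vehicle. In DPP4_neg cells Idi1 had 291, 295, 309 and 251 normalized counts under isoproterenol, against 233, 210.3, 228 and 223 under vehicle. Idi1 was 2.08-fold higher under isoproterenol in DPP4_pos APCs with no overlap, and the response was 1.05 ± 0.06 (adjusted p = 3.97e-13) there and 0.35 ± 0.06 (adjusted p = 2.65e-05) in DPP4_neg APCs (limma). The other enzymes moved less. Fdps, which makes farnesyl diphosphate, fell by 0.22 ± 0.04 in DPP4_pos and 0.23 ± 0.04 in DPP4_neg APCs, and shares 26.7% of its exon bases with the annotated gene Gm43738 on the same strand. The thiolase Acat2, which makes the first intermediate, and Mvd, the decarboxylase that makes isopentenyl diphosphate, were not called in DPP4_pos APCs (0.01 ± 0.06 and 0.02 ± 0.06), and both were called lower when scaled to total reads (−0.261 and −0.257), as was Acat2 under quantile normalization (−0.15). In DPP4_neg APCs Acat2 fell by 0.28 ± 0.06 and Mvd was at −0.09 ± 0.06 (adjusted p = 0.197).

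**Figure D3:**
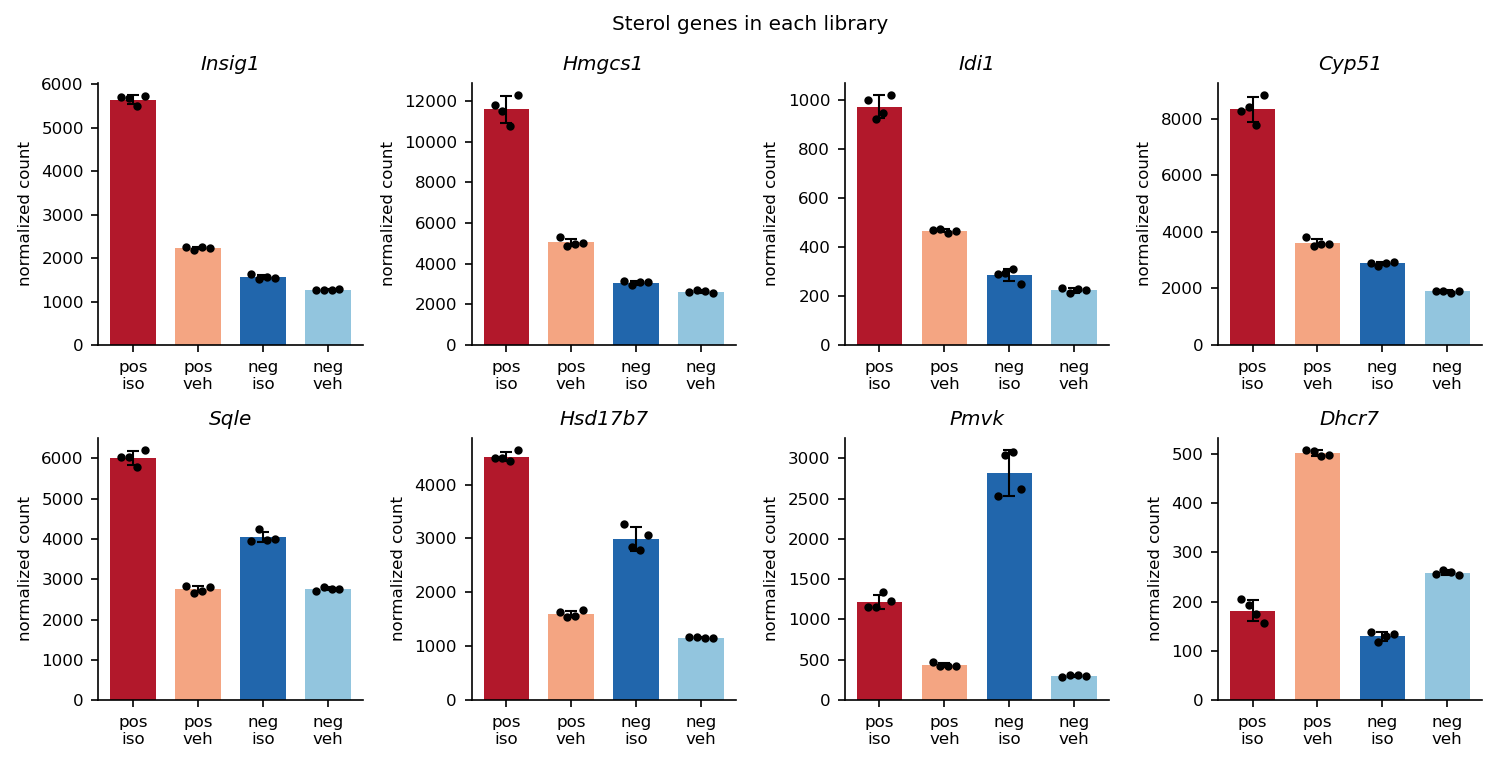
Normalized counts of 8 sterol genes in each library (points), with the mean of each group (bar from 0) and its SD (line), for DPP4_pos isoproterenol, DPP4_pos vehicle, DPP4_neg isoproterenol and DPP4_neg vehicle libraries, 4 each. Insig1, Hmgcs1, Idi1 and Cyp51 are highest in DPP4_pos isoproterenol libraries, Pmvk is highest in DPP4_neg isoproterenol libraries, and Dhcr7 is lower under isoproterenol in both populations.

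Along the segment from farnesyl diphosphate to cholesterol, Sqle, Cyp51 and Hsd17b7 rose in both populations, while Tm7sf2, Nsdhl, Sc5d and Dhcr7 fell in both, although the fall of Tm7sf2 in DPP4_neg APCs was not called under quantile normalization. In DPP4_pos APCs 6 of the 12 enzymes rose, 5 fell and 1 was not called, and in DPP4_neg APCs 3 rose, 7 fell and 2 were not called. The shares over all genes were 39.4% rising and 43.3% falling in DPP4_pos APCs, and 32.1% rising and 33.6% falling in DPP4_neg APCs. The rises of Sqle, Cyp51 and Hsd17b7 were called in both populations under every scaling tried.

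Squalene epoxidase, encoded by Sqle (chromosome 15, 59315077 to 59331192, forward strand), adds the oxygen from which the sterol ring system is closed. In DPP4_pos cells Sqle had 6034, 6028, 5787 and 6211 normalized counts under isoproterenol, against 2825, 2664, 2705 and 2796 under vehicle. In DPP4_neg cells Sqle had 3956, 4236, 3985 and 3999 normalized counts under isoproterenol, against 2717, 2808, 2752 and 2757 under vehicle. The vehicle levels of the 2 populations overlapped, with a difference of −0.01 ± 0.03 (adjusted p = 0.88), and both rose without overlap, by 1.13 ± 0.03 (adjusted p = 1.91e-18) in DPP4_pos and 0.55 ± 0.03 (adjusted p = 1.57e-12) in DPP4_neg APCs (limma). Cyp51 (chromosome 5, 4081145 to 4104746, reverse strand) encodes the demethylase that acts on lanosterol, the first sterol of the route. In DPP4_pos cells Cyp51 had 8268, 8408, 7777 and 8832 normalized counts under isoproterenol, against 3800.0, 3498, 3578 and 3582 under vehicle. In DPP4_neg cells Cyp51 had 2898, 2805, 2912 and 2917 normalized counts under isoproterenol, against 1925, 1925, 1825 and 1894 under vehicle. Groups were separate within each population, with responses of 1.20 ± 0.04 (adjusted p = 7.32e-18) in DPP4_pos and 0.61 ± 0.04 (adjusted p = 3.23e-12) in DPP4_neg APCs and a difference between them of 0.59 ± 0.05 (adjusted p = 2.79e-09) (limma). Quantile normalization reduced that difference to 0.26.

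Hsd17b7 (chromosome 1, 169949535 to 169969241, reverse strand), the reductase that completes removal of the methyl groups from the sterol ring, rose in both populations. In DPP4_pos cells Hsd17b7 had 4502, 4500.2, 4432 and 4641 normalized counts under isoproterenol, against 1629, 1542, 1566 and 1672 under vehicle. In DPP4_neg cells Hsd17b7 had 3273, 2847, 2783 and 3067 normalized counts under isoproterenol, against 1174, 1166, 1154 and 1145 under vehicle. No groups overlapped, and the rise was 2.82-fold in DPP4_pos and 2.57-fold in DPP4_neg APCs, or 1.5 ± 0.04 (adjusted p = 1.58e-18) in DPP4_pos and 1.36 ± 0.04 (adjusted p = 1.96e-17) in DPP4_neg APCs on the log2 scale (limma). The difference of 0.13 ± 0.06 was not called (adjusted p = 0.0613). It was called without DPP4_neg isoproterenol replicate 1 (0.176) or DPP4_pos vehicle replicate 4 (0.153), turned negative and was called under quantile normalization (−0.153), and was at −0.129, not called, when scaled to total reads in genes.

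At the other end, Dhcr7 (chromosome 7, 143823145 to 143848410, forward strand), which performs the last reduction to cholesterol, fell in both populations. In DPP4_pos cells Dhcr7 had 204, 193, 174 and 156 normalized counts under isoproterenol, against 508, 505, 496 and 498 under vehicle. In DPP4_neg cells Dhcr7 had 138, 117, 129 and 135 normalized counts under isoproterenol, against 255, 265, 259.9 and 255 under vehicle. All isoproterenol values were below all vehicle values, and the fall was 2.76-fold in DPP4_pos and 1.99-fold in DPP4_neg APCs, with a difference between responses of −0.47 ± 0.11 (adjusted p = 0.000633) (limma). Nsdhl, the dehydrogenase that removes a methyl group as carbon dioxide just before the Hsd17b7 step, fell as well. In DPP4_pos cells Nsdhl had 634, 569.7, 468 and 601 normalized counts under isoproterenol, against 1251, 1084, 1203 and 1162 under vehicle. In DPP4_neg cells Nsdhl had 337, 368, 315 and 333 normalized counts under isoproterenol, against 604, 601, 601 and 621 under vehicle. Groups were separate in both, with responses of −1.05 ± 0.07 (adjusted p = 8.65e-12) in DPP4_pos and −0.84 ± 0.07 (adjusted p = 9.15e-10) in DPP4_neg APCs (limma). The difference between these responses, −0.21 ± 0.10, was not called (adjusted p = 0.0751) but was called without DPP4_neg isoproterenol replicate 3, DPP4_pos vehicle replicate 2 or DPP4_pos isoproterenol replicate 1 (−0.245, −0.25 and −0.267). It was also called under quantile normalization (−0.336), with edgeR (−0.265) and when scaled to total reads (−0.472). Sc5d, the desaturase that comes before Dhcr7, fell by 0.30 ± 0.05 in DPP4_pos and 0.69 ± 0.05 in DPP4_neg APCs.

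Tm7sf2 and Lbr encode sterol reductases that act at the same step, and Lbr also anchors chromatin to the nuclear lamina. Both fell in DPP4_neg APCs, by 0.29 ± 0.09 (Tm7sf2, not called under quantile normalization) and 0.32 ± 0.04 (Lbr), while in DPP4_pos APCs Tm7sf2 fell and Lbr rose. Tm7sf2 had 153, 149.8, 130.1 and 139 normalized counts under isoproterenol, against 272, 267, 252 and 264 under vehicle in DPP4_pos cells. In DPP4_neg cells Tm7sf2 had 63.2, 64.6, 80.5 and 72.2 normalized counts under isoproterenol, against 87.7, 84.7, 89.6 and 80.5 under vehicle. It fell by 0.88 ± 0.09 in DPP4_pos APCs, and was higher in DPP4_pos APCs by 1.61 ± 0.09 (adjusted p = 7.71e-13) under vehicle (limma), the largest such difference among the sterol enzymes. In DPP4_pos cells Lbr had 937, 890.3, 858 and 945 normalized counts under isoproterenol, against 623, 601, 633 and 607 under vehicle. In DPP4_neg cells Lbr had 715, 678, 677 and 648 normalized counts under isoproterenol, against 833, 829, 856 and 866 under vehicle. Lbr was thus lower in DPP4_pos APCs under vehicle, −0.46 ± 0.04 (adjusted p = 4.28e-09), and higher under isoproterenol, 0.42 ± 0.04 (adjusted p = 1.46e-08) (limma). Tm7sf2 shares 12.1% of its exon bases with Vps51 on the same strand and Lbr 9.2% with Dnah14 on the other.

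Of the remaining enzymes of this segment, Msmo1, a sterol methyl oxidase, rose by 0.49 ± 0.04 in DPP4_pos APCs and was at −0.09 ± 0.04 (adjusted p = 0.0626) in DPP4_neg APCs. Without DPP4_neg vehicle replicate 1 or DPP4_neg isoproterenol replicate 2 Msmo1 was called lower there (−0.103 and −0.111), as it was under quantile normalization (−0.132) and when scaled to total reads (−0.099). Squalene synthase, Fdft1, had 1689.9 ± 71.7 and 1466 ± 30.2 normalized counts in DPP4_pos isoproterenol and vehicle libraries and 659 ± 28.5 and 816 ± 22.0 in the DPP4_neg ones (mean ± SD, n = 4). It shares 18.3% of its exon bases with Ctsb, which averaged 26953 normalized counts, on the other strand. Lss, the cyclase that forms lanosterol, fell by 0.35 ± 0.06 in DPP4_neg APCs and was at 0.06 ± 0.06 (adjusted p = 0.341) in DPP4_pos APCs, where it was called lower when scaled to total reads (−0.21). The isomerase Ebp fell by 0.18 ± 0.06 in DPP4_pos APCs with overlapping groups, a call lost without DPP4_pos isoproterenol replicate 4 (−0.127), and was at −0.02 ± 0.06 in DPP4_neg APCs. The difference of its responses, −0.16 ± 0.09 (adjusted p = 0.136, limma), was called without DPP4_pos isoproterenol replicate 2 (−0.211), under quantile normalization (−0.234), with edgeR (−0.214) and when scaled to total reads (−0.416). Its difference between the populations under isoproterenol, 0.10 ± 0.06, was called without DPP4_neg isoproterenol replicate 2 (0.152) or DPP4_pos isoproterenol replicate 4 (0.15) and was −0.097 when scaled to total reads.

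Stard4, a carrier that moves cholesterol between membranes, rose with isoproterenol in DPP4_pos APCs. In DPP4_pos cells Stard4 had 1479, 1301, 1304 and 1462 normalized counts under isoproterenol, against 816, 735, 718 and 738 under vehicle. In DPP4_neg cells Stard4 had 381, 322, 399 and 417 normalized counts under isoproterenol, against 388, 414, 381 and 380.3 under vehicle. The DPP4_pos groups were separate and the DPP4_neg groups overlapped, with responses of 0.88 ± 0.07 (adjusted p = 8.37e-11) in DPP4_pos and −0.05 ± 0.07 (adjusted p = 0.554) in DPP4_neg APCs and a difference of 0.93 ± 0.10 (adjusted p = 3.39e-08) (limma). Summed over the 19 sterol enzymes, the normalized counts came to 45739.9 ± 1800.5 in DPP4_pos isoproterenol, 27646 ± 822 in DPP4_pos vehicle, 22756 ± 265 in DPP4_neg isoproterenol and 17358 ± 208 in DPP4_neg vehicle libraries (mean ± SD, n = 4). As shares of all normalized counts these were 0.2471%, 0.1804%, 0.1409% and 0.1084%. The sums hold many counts of Hmgcs1, Cyp51, Sqle and Hsd17b7, so they do not stand for each enzyme.

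**Figure D4:**
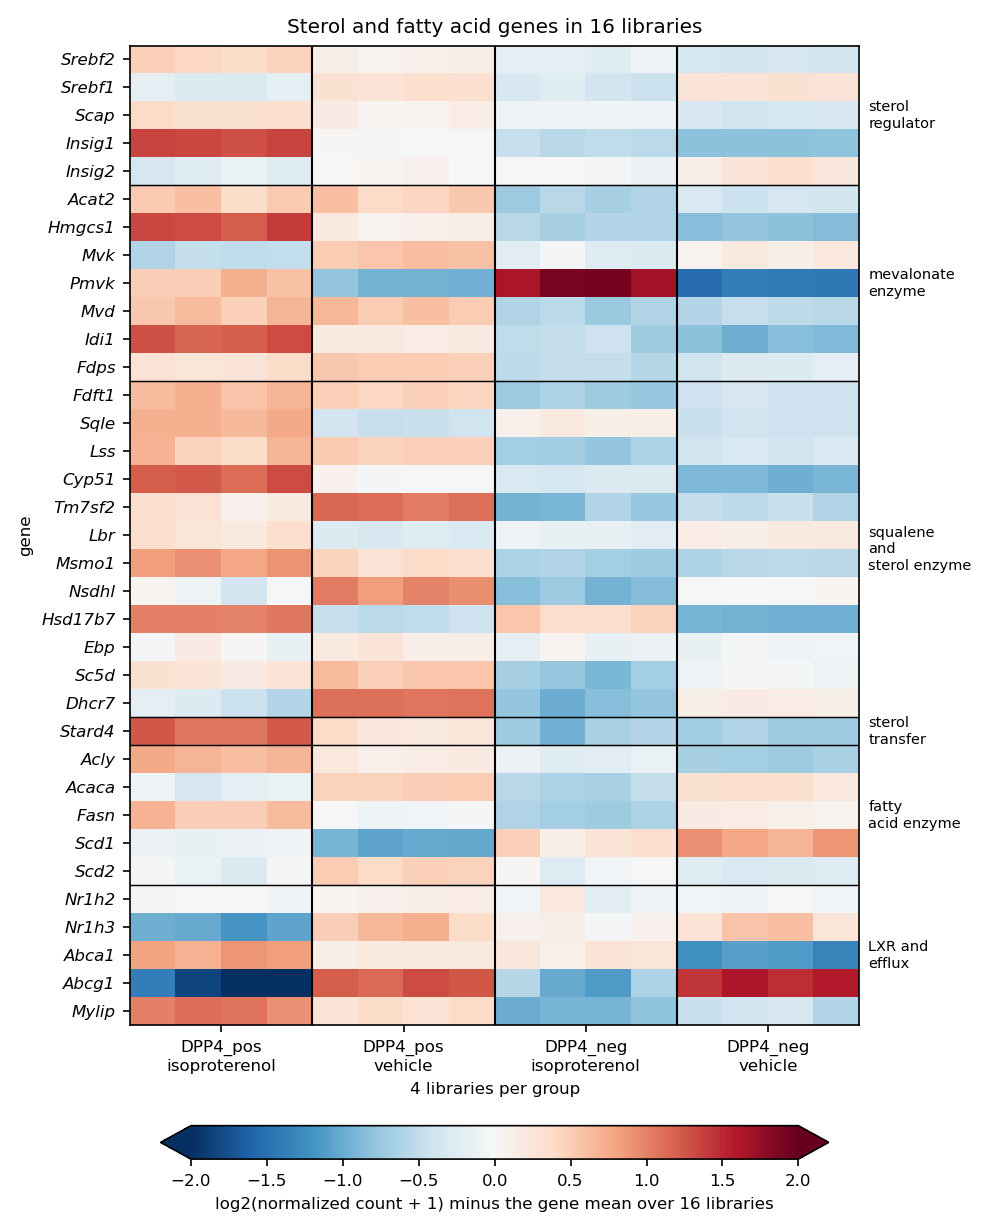
Log2(normalized count + 1) of each gene in each of the 16 libraries, minus the gene's mean over all 16, with red above and blue below that mean, colours capped at 2 in both directions, genes ordered by class and the 4 libraries of a group side by side. DPP4_pos isoproterenol libraries are red for most sterol genes, Pmvk is reddest in DPP4_neg isoproterenol libraries, and Abcg1 is blue under isoproterenol in both populations.

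Of the 5 fatty acid enzymes, Fasn, Scd1 and Scd2 changed in opposite directions in the populations, while Acly rose in both and Acaca fell in both, although under quantile normalization the rises of Scd2 in DPP4_neg and Acly in DPP4_pos APCs were not called. In DPP4_pos APCs isoproterenol raised Acly, Fasn and Scd1 and lowered Acaca and Scd2. In DPP4_neg APCs it raised Acly and Scd2 and lowered Acaca, Fasn and Scd1. Over all genes, 3.7% rose in DPP4_pos and fell in DPP4_neg APCs, and 2.7% did the reverse. Beside these results, the 9 adipocyte markers, none of them among the 35 genes, fell in both populations, 9 of 9 in each. Over all genes, 43.3% fell in DPP4_pos and 33.6% in DPP4_neg APCs, and 26.4% fell in both. The sums given next are of the 9 markers. Their sums were 6892 ± 438 in DPP4_pos isoproterenol and 22056 ± 1351 in DPP4_pos vehicle libraries, and 25538 ± 2333 in DPP4_neg isoproterenol and 72250.1 ± 4592 in DPP4_neg vehicle libraries (mean ± SD, n = 4). No marker of the list was at 0 in any library. Their part in the results on fatty acid enzymes was not tested.

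Fasn (chromosome 11, 120805846 to 120824547, reverse strand), the synthase that builds palmitate, responded in opposite directions. In DPP4_pos cells Fasn had 10769, 9340.1, 9395 and 10345 normalized counts under isoproterenol, against 6703, 6245, 6417 and 6460.4 under vehicle. In DPP4_neg cells Fasn had 4360.1, 4156, 4060.2 and 4262 normalized counts under isoproterenol, against 7412, 7372, 7091 and 6991 under vehicle. Isoproterenol values were all above vehicle values in DPP4_pos APCs and all below them in DPP4_neg APCs. The responses were 0.62 ± 0.04 (adjusted p = 7.21e-12) in DPP4_pos and −0.78 ± 0.04 (adjusted p = 3.52e-13) in DPP4_neg APCs, with a difference of 1.4 ± 0.06 (adjusted p = 1.97e-14) (limma). Under quantile normalization the DPP4_pos rise was 0.09 and remained called (adjusted p = 0.0447), and when scaled to total reads it was 0.35. Between the populations, Fasn was lower in DPP4_pos APCs under vehicle, without overlap of groups. That call was lost under quantile normalization (−0.006, adjusted p = 0.904, limma). Under isoproterenol Fasn was higher in DPP4_pos APCs, by 1.24.

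Scd1 (chromosome 19, 44394455 to 44407879, reverse strand), a desaturase that makes monounsaturated fatty acids, was the most abundant of the 35 genes per exon length in every group. In DPP4_pos cells Scd1 had 19903, 19290.1, 19812 and 20531 normalized counts under isoproterenol, against 11255, 10352, 10711 and 10519 under vehicle. In DPP4_neg cells Scd1 had 30035, 23443, 25857 and 27044 normalized counts under isoproterenol, against 40554, 36693, 34448 and 39462 under vehicle. Here too the groups were separate, with a rise of 0.89 ± 0.06 (adjusted p = 4.32e-12) in DPP4_pos and a fall of 0.51 ± 0.06 (adjusted p = 1.04e-07) in DPP4_neg APCs (limma). The rise in DPP4_pos APCs was 0.42 under quantile normalization and 0.62 when scaled to total reads. Scd1 was 3.52-fold lower in DPP4_pos than in DPP4_neg APCs under vehicle, −1.82 ± 0.06 (adjusted p = 3.35e-17), and 1.33-fold lower under isoproterenol, −0.41 ± 0.06 (adjusted p = 1.54e-06) (limma).

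Its close relative Scd2 moved the other way. In DPP4_pos cells Scd2 had 7784, 7284, 6586 and 7843 normalized counts under isoproterenol, against 11450.2, 10585, 11139.7 and 11007 under vehicle. In DPP4_neg cells Scd2 had 8182, 6688, 7748 and 8022 normalized counts under isoproterenol, against 6770.5, 6475, 6585 and 6724 under vehicle. The DPP4_pos groups were separate and the DPP4_neg groups overlapped, with responses of −0.59 ± 0.06 (adjusted p = 2.41e-09) in DPP4_pos and 0.20 ± 0.06 (adjusted p = 0.003) in DPP4_neg APCs (limma). Between the populations Scd2 was higher in DPP4_pos APCs under vehicle, 0.73 ± 0.06, and at −0.05 ± 0.06 (adjusted p = 0.386) under isoproterenol, where it was called lower without DPP4_neg isoproterenol replicate 2 (−0.118), under quantile normalization (−0.288) and when scaled to total reads (−0.251). Scd1 and Scd2 are closely related copies, and how reads matching both were counted is not given in the sources used here.

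Acly, the lyase that supplies cytosolic acetyl-CoA to both routes, rose in both populations, although its DPP4_pos value was −0.022 under quantile normalization. In DPP4_pos cells Acly had 10958, 10420.3, 9864 and 10392 normalized counts under isoproterenol, against 7505, 6992, 7199 and 7378 under vehicle. In DPP4_neg cells Acly had 5983, 5474, 5627 and 5942 normalized counts under isoproterenol, against 4088, 4053, 3981 and 4134 under vehicle. The groups were separate, with responses of 0.52 ± 0.04 (adjusted p = 1.8e-11) in DPP4_pos and 0.50 ± 0.04 (adjusted p = 7.2e-11) in DPP4_neg APCs and a difference of 0.02 ± 0.05 (adjusted p = 0.801, limma). That difference was called negative under quantile normalization (−0.41, adjusted p = 6.63e-07) and when scaled to total reads (−0.245, adjusted p = 0.000269). Acaca, the carboxylase that makes malonyl-CoA, fell in both. In DPP4_pos cells Acaca had 1345, 1136, 1249 and 1300.4 normalized counts under isoproterenol, against 1965, 1974, 2005 and 2028 under vehicle. In DPP4_neg cells Acaca had 969, 927, 916 and 1029 normalized counts under isoproterenol, against 1771, 1796, 1780.3 and 1658 under vehicle. Isoproterenol values were all below vehicle values, with responses of −0.67 ± 0.05 (adjusted p = 1.98e-11) in DPP4_pos and −0.87 ± 0.05 (adjusted p = 4.66e-13) in DPP4_neg APCs (limma). The difference of 0.20 ± 0.07 was called, but was 0.012 under quantile normalization and −0.061 when scaled to total reads, neither of them called.

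**Figure D5:**
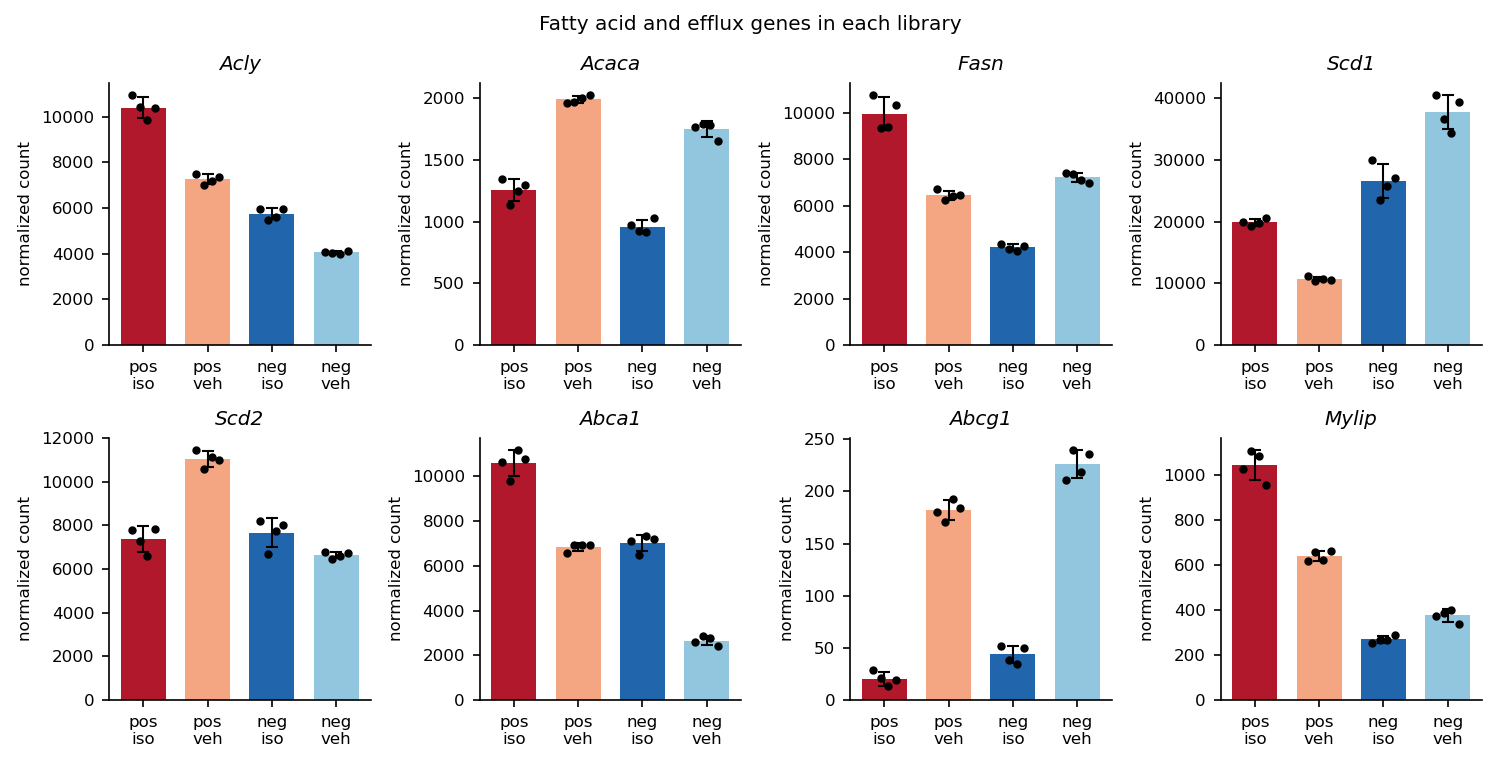
Normalized counts of the 5 fatty acid enzymes and 3 efflux genes in each library (points), with the mean of each group (bar from 0) and its SD (line), for DPP4_pos isoproterenol, DPP4_pos vehicle, DPP4_neg isoproterenol and DPP4_neg vehicle libraries, 4 each. Fasn, Scd1 and Mylip are higher under isoproterenol in DPP4_pos and lower in DPP4_neg libraries, and Abcg1 is lower under isoproterenol in both while Abca1 is higher.

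The 2 exporters of the LXR branch went in opposite directions. Abca1 (chromosome 4, 53030787 to 53159895, reverse strand) passes cholesterol to lipid-poor apolipoproteins. In DPP4_pos cells Abca1 had 10638, 9805, 11184 and 10764 normalized counts under isoproterenol, against 6573, 6918, 6918 and 6923 under vehicle. In DPP4_neg cells Abca1 had 7103, 6497, 7324 and 7202 normalized counts under isoproterenol, against 2592, 2867, 2777 and 2402 under vehicle. The isoproterenol values were above the vehicle values in each population, and Abca1 rose by 0.63 ± 0.05 (adjusted p = 1.31e-10) in DPP4_pos and 1.4 ± 0.05 (adjusted p = 2.35e-16) in DPP4_neg APCs, with a difference of −0.77 ± 0.07 (adjusted p = 5.21e-09) (limma). The DPP4_pos rise was 0.12 under quantile normalization and 0.36 when scaled to total reads. Under vehicle Abca1 was 2.57-fold higher in DPP4_pos APCs, 1.36 ± 0.05 (adjusted p = 3.78e-16) (limma).

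Abcg1 (chromosome 17, 31057675 to 31117988, forward strand), which passes cholesterol to mature lipoprotein particles, was the least abundant of the 35 genes per exon length on average over the groups. In DPP4_pos cells Abcg1 had 29.2, 20.9, 13.2 and 18.8 normalized counts under isoproterenol, against 180.1, 170.2, 193 and 184 under vehicle. In DPP4_neg cells Abcg1 had 51.8, 38.2, 34.7 and 49.9 normalized counts under isoproterenol, against 211, 239.5, 218 and 235 under vehicle. All isoproterenol values were far below all vehicle values. It fell 8.80-fold in DPP4_pos and 5.15-fold in DPP4_neg APCs, or −3.14 ± 0.17 (adjusted p = 1.63e-13) in DPP4_pos and −2.37 ± 0.17 (adjusted p = 5.51e-11) in DPP4_neg APCs on the log2 scale (limma), and the lowest library held 9 reads. Under vehicle its difference between the populations, −0.31 ± 0.17, was not called by limma (adjusted p = 0.113) but was called by edgeR (−0.30, adjusted p = 0.0034) and DESeq2 (−0.31, adjusted p = 0.00334) on the recovered reads.

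The receptors differed from each other. Nr1h3, which encodes LXR alpha, fell under isoproterenol. In DPP4_pos cells Nr1h3 had 87.6, 85.4, 76.0 and 82.7 normalized counts under isoproterenol, against 244, 274, 287 and 222 under vehicle. In DPP4_neg cells Nr1h3 had 183, 186, 167 and 184 normalized counts under isoproterenol, against 212, 257, 263 and 204 under vehicle. The groups were separate, with a larger fall in DPP4_pos APCs, −1.61 ± 0.10 (adjusted p = 8.29e-13) against −0.37 ± 0.10 (adjusted p = 0.00209) in DPP4_neg APCs, and a difference of −1.25 ± 0.14 (adjusted p = 6.9e-08) (limma). Nr1h2, which encodes LXR beta, stayed between 863 and 1165 normalized counts in all 16 libraries. Its responses were −0.10 ± 0.06 (adjusted p = 0.116) in DPP4_pos and 0.02 ± 0.06 (adjusted p = 0.817) in DPP4_neg APCs (limma). The first was called lower without DPP4_neg isoproterenol replicate 2 (−0.105), with edgeR (−0.146), under quantile normalization (−0.293) and when scaled to total reads (−0.378). Its difference between the responses, −0.12 ± 0.09, was called without DPP4_neg isoproterenol replicate 3 (−0.184), under quantile normalization (−0.286) and when scaled to total reads (−0.382). Between the populations Nr1h2 was higher in DPP4_pos APCs under vehicle, 0.15 ± 0.06, but this call was lost without any 1 of DPP4_neg vehicle replicates 1, 2 and 4 and DPP4_pos vehicle replicates 3 and 4 (0.133 to 0.151), or with no filter on low values (adjusted p = 0.0516). Under isoproterenol it was at 0.03 ± 0.06, called higher without DPP4_neg isoproterenol replicate 2 (0.112) and lower when scaled to total reads (−0.167).

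Mylip, an LXR target whose product, a ubiquitin ligase, marks lipoprotein receptors for breakdown, behaved like Fasn and Scd1 in sign. In DPP4_pos cells Mylip had 1029, 1108, 1087 and 958 normalized counts under isoproterenol, against 619, 659, 622 and 665 under vehicle. In DPP4_neg cells Mylip had 255, 267, 267 and 291 normalized counts under isoproterenol, against 373, 389, 402 and 340.4 under vehicle. Groups were separate, above vehicle in DPP4_pos and below it in DPP4_neg APCs, with responses of 0.70 ± 0.06 (adjusted p = 4.04e-10) in DPP4_pos and −0.48 ± 0.06 (adjusted p = 4.18e-07) in DPP4_neg APCs and a difference of 1.18 ± 0.08 (adjusted p = 1.01e-10) (limma). Under isoproterenol Mylip was 3.86-fold higher in DPP4_pos than in DPP4_neg APCs, the largest difference between the populations among the 35 genes under that treatment.

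Levels per kilobase of annotated exon placed the genes on a common scale. Scd1 led in every group, with 4065, 2189, 5436 and 7725 normalized counts per kilobase in DPP4_pos isoproterenol, DPP4_pos vehicle, DPP4_neg isoproterenol and DPP4_neg vehicle libraries. Hmgcs1 had levels of 2522, 1099, 668 and 571 in the same order, and Pmvk 711, 254, 1645 and 176, so that Pmvk passed Hmgcs1 in DPP4_neg isoproterenol libraries. Abcg1 lay between 2.81 and 31.0, and Tm7sf2 was the lowest sterol enzyme on average over the groups, at 15.9 to 59.8. These levels use all annotated exons of a gene and understate genes that use few of them.

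Of 27 other genes of sterol and fatty acid metabolism, 11 rose, 13 fell and 3 were not called in DPP4_pos APCs, and 8 rose, 15 fell and 4 were not called in DPP4_neg APCs. Their median response was −0.09 in DPP4_pos and −0.14 in DPP4_neg APCs, against −0.054 and −0.02 over all genes. Of all genes tested, 39.4% rose and 43.3% fell in DPP4_pos APCs, and 32.1% rose and 33.6% fell in DPP4_neg APCs. Acacb, the mitochondrial carboxylase isoform, fell by 2.97 ± 0.16 in DPP4_pos and 2.33 ± 0.16 in DPP4_neg APCs, and was at 25.1 ± 8.01 and 196 ± 15.3 normalized counts in DPP4_pos isoproterenol and vehicle libraries. Mlxipl, which encodes the carbohydrate response factor ChREBP, fell by 2.65 ± 0.14 in DPP4_pos and 1.96 ± 0.14 in DPP4_neg APCs. Thrsp, a lipogenic gene, fell by 2.45 ± 0.32 in DPP4_neg APCs, and Scarb1, a receptor for high-density lipoprotein, by 2.06 ± 0.05 in DPP4_pos APCs. Thrsp was near the floor, with 2.94 to 33.83 normalized counts and 344 reads in all over the 16 libraries. The lipoprotein receptor gene Lrp8 rose in both, to 609.9 ± 44.2 normalized counts in DPP4_pos isoproterenol libraries, against 94.0 ± 7.36 in DPP4_pos vehicle libraries, and to 313 ± 39.3 in DPP4_neg isoproterenol libraries, against 89.5 ± 11.9 in DPP4_neg vehicle libraries. The response difference was positive for 11 of the 27, negative for 10 and not called for 6, against 31.6% positive and 31.0% negative over all genes. Lrp8 (0.89 ± 0.14), the sterol hydroxylase Ch25h (1.08 ± 0.18), the elongase Elovl5 (0.85 ± 0.05) and the synthetase Aacs (0.85 ± 0.05) responded more positively in DPP4_pos APCs.

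Between the populations, 15 of these 27 genes were higher in DPP4_pos APCs under isoproterenol, 7 were lower and 5 were not called, with a median of 0.24, against 37.4% higher and 37.0% lower over all genes. Under vehicle 8 were higher, 11 lower and 8 not called, with a median of −0.05, against 31.6% higher and 35.0% lower over all genes. The lysosomal cholesterol carrier Npc2 was higher in DPP4_pos APCs by 1.06 ± 0.05 under isoproterenol and 1.25 ± 0.05 under vehicle, and the cholesterol ester hydrolase Nceh1 by 1.18 ± 0.08 under vehicle. The elongase Elovl6 was higher by 1.08 ± 0.05 under isoproterenol. Lower were Fads3, of the fatty acid desaturase family, at −1.22 ± 0.05 under isoproterenol and −1.33 ± 0.05 under vehicle, and Acacb, at −1.87 ± 0.16 under isoproterenol and −1.23 ± 0.16 under vehicle.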

How the data were processed

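Genome-wide RNA levels were read from 16 libraries, 4 in each of 4 groups, made from 500 ng of total RNA each. Build GRCm38 and the tools featureCounts 1.4.6, DESeq2 1.6.3, HISAT2 2.0.1 and Trim Galore 0.4.1 are listed in the submitters' processing notes, without roles, order or settings. The deposited values are a signal of gene counts divided by size factors, called normalized counts here. Whole reads were recovered for 100.0% of the 280334 values above 0 within 0.001, and gave each library's depth, 9823799 to 28627223 reads. The 958 entries without a symbol held 0.093% of the normalized counts. They carry a gene ID and were kept in the tests where they passed the filter.

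Genes with a normalized count of at least 10 in at least 4 libraries (14005) were tested with limma 3.58.1 (R 4.3.3, trend on mean level) on log2(normalized count + 1) in 1 fit of 4 group means, with Benjamini-Hochberg adjustment over all 14005 genes and a threshold of 0.05. Log2 differences are on that scale, which understates changes of low genes, and errors beside them are standard errors of the fit. Alternatives were quantile normalization, edgeR 4.0.16 with TMM and DESeq2 1.42.0 on the recovered reads, a pseudocount of 8, no filter, a minimum of 50, the replicate number as a block, leaving out each library, and, added after the totals were seen, scaling to total reads in genes. The members and lists were chosen with earlier results of these data known. All 35 members are named. Of other pathway genes, at most 4 called with the largest differences are named per comparison. Genes with patterns most like the members are not given, since the libraries fall into 4 clusters. Promoters come from the RefSeq table of GRCm38.p6.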

Additional observations from a re-analysis of the deposited data

Results flagged for a closer look

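In 5 of the 140 combinations of a member and a group, 1 library stood apart from the other 3 by Dixon's criterion, where chance alone gives about 1 in 20. Pmvk had 474.1 normalized counts in DPP4_pos vehicle replicate 1, against 417.35 to 425.82 in the other 3. Sqle had 4236.17 in DPP4_neg isoproterenol replicate 2, against 3955.96 to 3999.4. Cyp51 had 2804.54 in that same library, against 2897.53 to 2916.53. Nsdhl had 621.15 in DPP4_neg vehicle replicate 4, against 600.72 to 603.92. Abca1 had 6572.93 in DPP4_pos vehicle replicate 1, against 6917.82 to 6922.58. None of the calls for the isoproterenol response of these genes changed when the library was left out.

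The isoproterenol response differed between the populations for 25 of the 35 members by limma's test of the difference itself (adjusted p under 0.05). The same test called 62.6% of all genes. The log2 difference, DPP4_pos minus DPP4_neg, was positive for 17 members and 31.6% of all genes, and negative for 8 members and 31.0% of all genes. Among regulators it was 1.04 for Insig1 and 0.14 for Srebf2. Among mevalonate enzymes it was 0.97 for Hmgcs1, 0.7 for Idi1 and 0.29 for Acat2. Later sterol enzymes had 0.87 (Lbr), 0.59 (Cyp51), 0.58 (Sqle), 0.58 (Msmo1), 0.51 (Fdft1), 0.41 (Lss) and 0.39 (Sc5d), and the carrier Stard4 had 0.93. Fasn and Scd1 had 1.4 each, Acaca 0.2 and Mylip 1.18. The 8 negative differences were −1.74 for Pmvk, −1.25 for Nr1h3, −0.79 for Scd2, −0.77 for Abca1, −0.77 for Abcg1, −0.75 for Mvk, −0.59 for Tm7sf2 and −0.47 for Dhcr7. Of the positive ones, that of Srebf2 was called negative under quantile normalization (−0.144) and when scaled to total reads (−0.122), and those of Acat2, Lss, Sc5d and Acaca were not called when scaled to total reads.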

How the results depend on the processing

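Of 175 values, 35 members in 5 comparisons, 136 kept their direction and their side of the threshold under all 24 other settings and 39 did not. The number that kept both was 175 with a pseudocount of 8 and with the stricter filter, 174 without a filter, 173 with DESeq2, 162 with edgeR, 146 when scaled to total reads in genes and 145 under quantile normalization. Scaling to total reads was chosen after seeing the data. The cause of the changes was not tested. The count of members with a negative response difference was 17 under quantile normalization and 17 when scaled to total reads, in place of 8.

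Under quantile normalization these log2 values turned in sign: Srebf2 −0.044, Scap −0.076, Acat2 −0.15, Mvd −0.104, Fdft1 −0.058, Lss −0.118 and Acly −0.022 for the DPP4_pos response, and Nr1h2 −0.007 for the DPP4_neg response. The difference of responses turned for Srebf2 −0.144, Srebf1 −0.135, Insig2 −0.09, Mvd −0.097, Fdps −0.226, Hsd17b7 −0.153 and Acly −0.41. The difference between the populations turned for Sqle 0.015 under vehicle and for Srebf1 −0.093 and Nr1h2 −0.108 under isoproterenol.

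Scaled to total reads in genes, the DPP4_pos response turned for Scap −0.042, Acat2 −0.261, Mvd −0.257, Fdft1 −0.069 and Lss −0.21. The difference of responses turned for Srebf2 −0.122, Srebf1 −0.188, Insig2 −0.259, Mvd −0.156, Fdps −0.252, Hsd17b7 −0.129, Acly −0.245 and Acaca −0.061. Between the populations Sqle 0.058 turned under vehicle, and Srebf1 −0.091, Ebp −0.097 and Nr1h2 −0.167 under isoproterenol. With edgeR, Acat2 −0.033 and Mvd −0.032 turned for the DPP4_pos response, Insig2 −0.053, Fdps −0.042 and Acly −0.035 for the difference of responses, Sqle 0.008 under vehicle and Nr1h2 −0.028 under isoproterenol. With DESeq2, Insig2 −0.004 turned for the difference of responses.

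Leaving out 1 library at a time gave ranges that crossed 0 for Ebp (−0.075 to 0.009), Stard4 (−0.096 to 0.029) and Nr1h2 (−0.065 to 0.079) in the DPP4_neg response, and for Acat2 (−0.024 to 0.057) and Mvd (−0.018 to 0.053) in the DPP4_pos response. They did so for Insig2 (−0.035 to 0.036), Fdps (−0.019 to 0.045) and Acly (−0.009 to 0.042) in the difference of responses, for Sqle (−0.02 to 0.009) under vehicle and for Nr1h2 (−0.032 to 0.112) under isoproterenol. None of these was called with all libraries.

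The replicate numbers did not pair the libraries, with 24 correlations of deviations between same-numbered libraries from −0.231 to 0.131 and 1 of them over 0.1. With the replicate number as a block, Hsd17b7 0.132 became a called difference of responses (adjusted p = 0.0362), which made 18 positive differences in place of 17, and no other call of a member changed. Depth limits Abcg1 most, with 9 reads in its lowest library.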
